A study of Ovis aries with 9 samples.

Results

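The 9 genes studied here build, break down or regulate muscle glycogen, and their RNA was followed through fetal life in sheep back muscle: the phosphorylases PYGM, PYGL and PYGB, glycogen synthase GYS1, the branching enzyme GBE1, the glycogen-targeting phosphatase subunits PPP1R3A and PPP1R3C, the phosphorylase kinase subunit PHKG1, and UGP2, which makes the sugar donor of synthase. They were chosen by gene name, at a time when earlier results of these data were known. Each of the 9 names matched exactly 1 of 22605 loci in the expression table, and all 9 were among the 13086 loci that passed the filter on low values (FPKM, fragments scaled to locus length and to the mapped fragments of the library, of at least 1 in at least 3 libraries). RNA-seq libraries came from the longissimus dorsi, the long muscle of the back, of Chinese merino fetuses at day 85 (D85), day 105 (D105) and day 135 (D135) of pregnancy, with 3 libraries at each age. The labels give no treatment or genotype. Nothing in the labels states that each library is a different fetus. The p-values below therefore reflect how far libraries of an age differ, which may be technical.

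Glycogen is a branched polymer of glucose that muscle fibres store and use as local fuel. Glycogenin starts a chain, glycogen synthase lengthens it with UDP-glucose and the branching enzyme adds branch points. Phosphorylase releases glucose 1-phosphate from the chain ends. Phosphorylase kinase switches phosphorylase on by phosphorylation. Protein phosphatase 1, held on the glycogen particle by a PPP1R3 subunit, switches phosphorylase off and synthase on. Fetal skeletal muscle is known to lay down glycogen in late gestation. The RNA levels reported here say nothing of phosphorylation state or of glycogen content.

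The libraries summed to between 395797 and 489270 FPKM, and between 2767 and 3249 loci were listed at 0. The tissue label fitted its markers: 7 of 8 skeletal muscle markers were matched, with summed levels of 7052 to 9436 FPKM at D85, 8604 to 11683 FPKM at D105 and 16521 to 20039 FPKM at D135, and 5 of the 7 rose at D135 against D85 while 0 fell. Library 2 of D105 stood apart, with a summed level of 5 matched tendon and cartilage markers of 322 FPKM, against 10.7 and 15.4 FPKM in the other D105 libraries. Its 6 fibroblast markers summed to 4039 FPKM (1849 and 1859 FPKM in the other D105 libraries) and its 7 adipocyte markers to 116 FPKM (7.87 and 9.71 FPKM). The members' comparisons with D105 were therefore repeated without that library. Most loci moved down relative to total FPKM at D135: the median log2 change over all tested loci was -0.33 against D105 and -0.35 against D85, and -0.02 for D105 against D85. Rescaling by median-of-ratios factors brought these medians to -0.03, -0.03 and -0.01, so calls of members are given under both scalings where they differ.

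**Figure D1:**
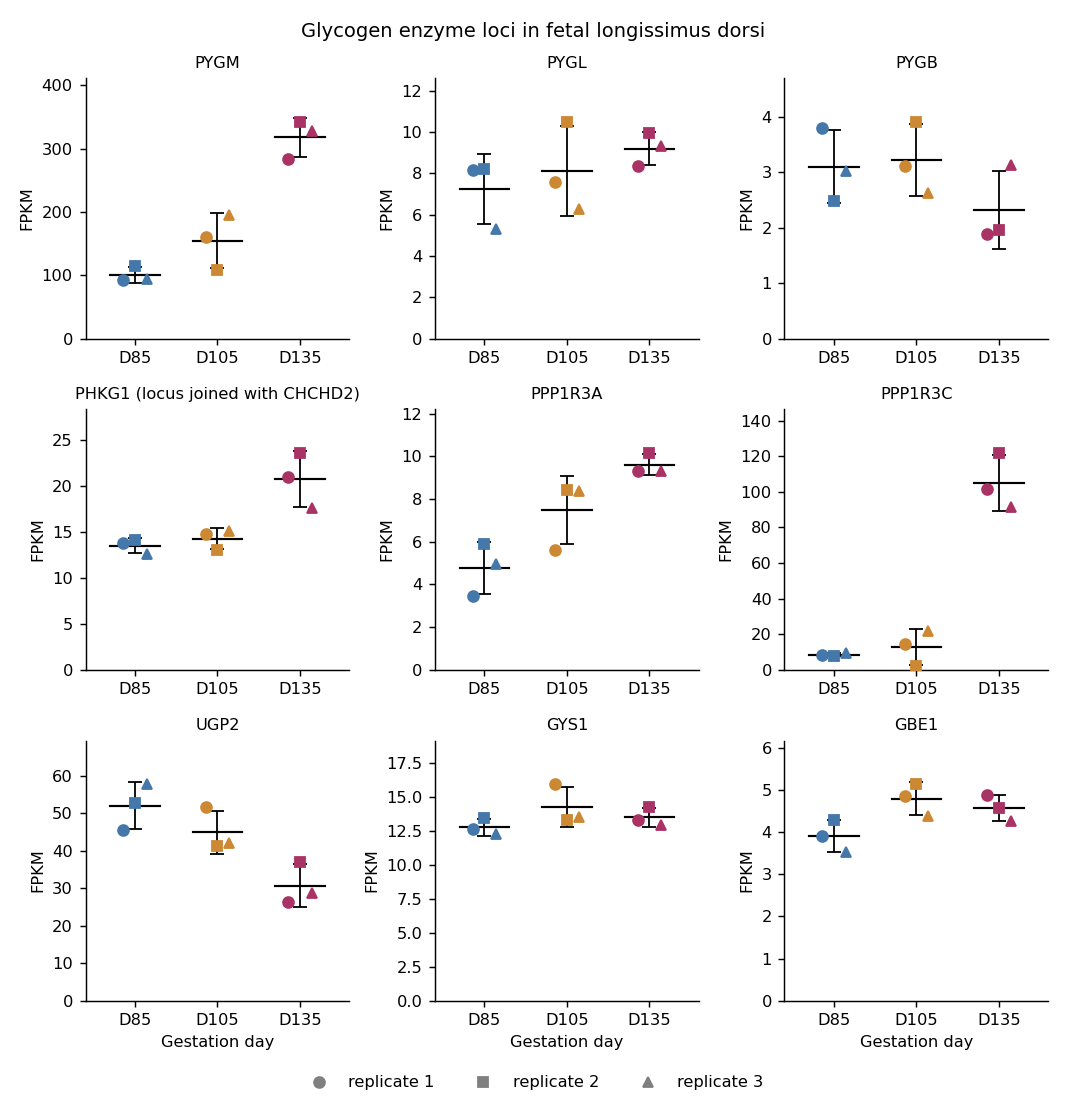
FPKM of the 9 loci in each library by gestation day, with the mean (line) and SD (bar) of the 3 libraries of a day; each panel has its own linear axis from 0. PYGM and PPP1R3C stood highest at D135 (means of 318 and 105 FPKM), UGP2 stood lowest at D135 (30.7 FPKM), and GYS1 lay between 12.2 and 15.9 FPKM in every library.

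PYGM, the muscle form of glycogen phosphorylase whose loss causes McArdle disease in humans, was the most abundant of the 9 loci at every age. It had 92.0, 115 and 93.9 FPKM in the D85 libraries, 161, 108 and 195 FPKM in the D105 libraries, and 284, 343 and 328 FPKM in the D135 libraries. All D135 libraries lay above all earlier ones, whereas D105 and D85 overlapped. Means were 100.2 ± 12.6 FPKM at D85, 155 ± 43.7 FPKM at D105 and 318 ± 30.5 FPKM at D135 (SD, n = 3 each), so the D135 mean was 2.06 times that of D105 and 3.18 times that of D85. Every test here used the log2(FPKM + 1) scale, except that of the PYGM share below, which used percent of summed FPKM. The log2 scale understates the change of low genes. On it, PYGM rose by 1.07 ± 0.21 (SE) at D135 against D105 (limma adjusted p = 0.00673) and by 1.66 ± 0.21 at D135 against D85 (adjusted p = 0.00077). The difference of 0.59 between D105 and D85 did not pass the test (adjusted p = 0.321). In bulk tissue, fewer cells of a type and less RNA per cell cannot be told apart. The muscle marker sum moved with PYGM across the ages, and its part in the rise was not tested.

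PYGL and PYGB, the phosphorylases named for liver and brain, were both low and neither passed a test at any age under the main scaling. PYGL had 8.19, 8.24 and 5.32 FPKM at D85, 7.58, 10.5 and 6.28 FPKM at D105, and 8.34, 9.94 and 9.34 FPKM at D135. The D135 libraries lay just above those of D85, and both overlapped D105. The log2 difference of D135 against D85 was 0.33, with a 95% interval of -0.15 to 0.80 (limma adjusted p = 0.225). Under median-of-ratios scaling it was 0.71 (adjusted p = 0.0301). The highest PYGL value, 10.5 FPKM, came from D105 library 2. That library also had the highest sum of 6 matched leukocyte markers, 53.5 FPKM in a range of 21.9 to 53.5 FPKM over all libraries. Its fibroblast, adipocyte, and tendon and cartilage sums were the highest as well. D135 libraries 2 and 3 had 9.94 and 9.34 FPKM of PYGL with leukocyte sums of 24.2 and 27.6 FPKM. D85 library 1 had 8.19 FPKM of PYGL with a leukocyte sum of 47.2 FPKM. A leukocyte source of PYGL was not tested. The 5 matched hepatocyte markers summed to 1.18 to 12.4 FPKM.

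PYGB had 3.79, 2.47 and 3.03 FPKM at D85, 3.11, 3.91 and 2.62 FPKM at D105, and 1.88, 1.95 and 3.12 FPKM at D135. The ages overlapped throughout, and the log2 difference of D135 against D85 was -0.31 (95% interval -0.75 to 0.13, limma adjusted p = 0.216). The 6 neuron and astrocyte markers summed to 2.07 to 5.38 FPKM over all libraries. At D135, AQP4 alone had 3.67, 4.74 and 3.50 FPKM, beside sums of 4.89, 5.38 and 4.30 FPKM. Means of SNAP25, SYT1, RBFOX3 and SLC1A2 were lower at D135 than at D85, and that of GFAP was higher. Because all 3 phosphorylases are measured per length within a library, their shares do not depend on library scaling. PYGM supplied 88.5%, 91.5% and 91.8% of the summed phosphorylase FPKM at D85, 93.8%, 88.2% and 95.6% at D105, and 96.5%, 96.7% and 96.3% at D135. The muscle form made up most of the sum in every library, and the D135 libraries lay above every earlier one. The difference among ages gave p = 0.0893 by an exact permutation test over libraries, 0.119 after Benjamini-Hochberg adjustment over the 4 relations tested. Without D105 library 2, the adjusted exact permutation p was 0.00714.

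Phosphorylase kinase has catalytic (gamma), regulatory (alpha and beta) and calmodulin subunits, and PHKG1 is the muscle catalytic one. Its locus is joined in the table with CHCHD2, a gene for a mitochondrial protein, and holds transcripts of both, so what follows cannot be assigned to PHKG1 alone. The joined locus had 13.7, 14.1 and 12.5 FPKM at D85, 14.7, 13.0 and 15.1 FPKM at D105, and 21.0, 23.6 and 17.6 FPKM at D135. All D135 libraries lay above all earlier ones, and D105 and D85 overlapped. The locus rose at D135 against D105 (log2 change 0.50 ± 0.12, limma adjusted p = 0.0138) and against D85 (0.58 ± 0.12, adjusted p = 0.00592). The difference between D105 and D85 was 0.08 (adjusted p = 0.853).

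The other phosphorylase kinase genes, which are not joined, changed in opposite directions. PHKA1, the muscle alpha subunit, had 6.68, 14.2 and 12.5 FPKM in the D135 libraries, against 5.67, 5.10 and 4.93 FPKM in the D85 libraries, and rose (log2 change 0.90, limma adjusted p = 0.0139). PHKA2, the liver alpha subunit, averaged 2.14 ± 0.584 FPKM at D135 and 9.27 ± 0.419 FPKM at D85 (SD, n = 3 each) and fell by 1.72 on the log2 scale (adjusted p = 0.000432). PHKG2, the catalytic subunit of liver and testis, averaged 1.82 ± 0.361 FPKM at D135 and 6.18 ± 1.15 FPKM at D85 and fell by 1.34 (adjusted p = 0.000416). PHKB, the shared beta subunit, averaged 9.83 ± 0.346 FPKM at D135 and 8.57 ± 0.331 FPKM at D85 and did not pass (0.18, adjusted p = 0.103). PHKB was called higher under median-of-ratios scaling (0.57, adjusted p = 0.00142).

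As a description within libraries, the FPKM ratio of PHKA1 to PHKA2 was 0.596, 0.536 and 0.562 at D85, 0.570, 1.06 and 0.738 at D105, and 2.38, 7.66 and 7.13 at D135. The liver subunit thus had the higher level in every D85 library and the muscle subunit in every D135 library. At D105, PHKA1 exceeded PHKA2 in library 2 alone. The ratio of the PHKG1 locus to PHKG2 lay between 1.97 and 2.56 at D85, between 3.31 and 3.82 at D105, and between 9.30 and 16.5 at D135, with no overlap of the ages.

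**Figure D2:**
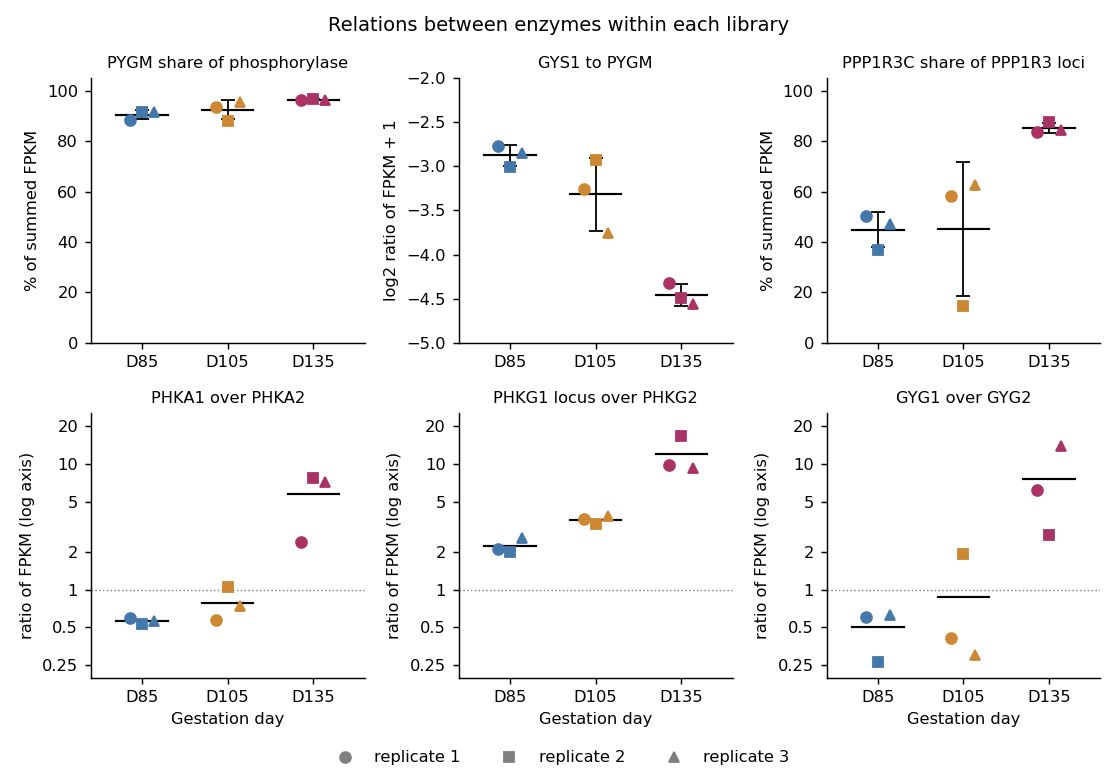
Relations between loci within each library by gestation day: the PYGM share of phosphorylase FPKM, the log2 ratio of GYS1 to PYGM, the PPP1R3C share of PPP1R3 FPKM, and the ratios PHKA1 over PHKA2, PHKG1 locus over PHKG2 and GYG1 over GYG2 on log axes (lines, means of 3 libraries; bars in the upper panels, SD). The PHKA1 to PHKA2 ratio was below 1 in all D85 libraries and above 1 in all D135 libraries, and PPP1R3C held 83.8% to 87.7% of the PPP1R3 sum at D135.

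The subunits that hold protein phosphatase 1 on glycogen included the member with the largest change. PPP1R3C, known as protein targeting to glycogen, had 8.31, 7.45 and 9.46 FPKM at D85, 14.2, 2.05 and 21.7 FPKM at D105, and 102, 122 and 91.5 FPKM at D135. The D135 libraries lay far above all others, and the D105 libraries spread on both sides of D85, with the lowest value of all in D105 library 2. Means were 8.40 ± 1.01 FPKM at D85, 12.7 ± 9.93 FPKM at D105 and 105 ± 15.5 FPKM at D135 (SD, n = 3 each), so the D135 mean was 8.30 times that of D105 and 12.5 times that of D85. PPP1R3C rose by 3.37 ± 0.64 on the log2 scale at D135 against D105 (limma adjusted p = 0.00597) and by 3.49 ± 0.64 against D85 (adjusted p = 0.00344). Without D105 library 2, the rise against D105 was 2.50 (adjusted p = 0.00123). Between D105 and D85 the log2 difference was 0.12, with a 95% interval of -1.35 to 1.59 (adjusted p = 0.966). It was 0.99 without D105 library 2 (adjusted p = 0.197), -0.17 without library 1 and -0.46 without library 3, so its direction depends on the D105 libraries used.

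PPP1R3A, the striated muscle targeting subunit, had 3.44, 5.87 and 4.95 FPKM at D85, 5.63, 8.42 and 8.37 FPKM at D105, and 9.30, 10.2 and 9.32 FPKM at D135. Each D135 library lay above each earlier one, and D105 overlapped D85. PPP1R3A rose at D135 against D85 (log2 change 0.90 ± 0.19, limma adjusted p = 0.00650). The D135 against D105 difference of 0.34 did not pass (adjusted p = 0.191), but was 0.71 under median-of-ratios scaling (adjusted p = 0.0412). The D105 against D85 difference of 0.56 did not pass (adjusted p = 0.296).

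The balance of PPP1R3A to PPP1R3C did not pass its test among the ages. The log2 ratio of PPP1R3A to PPP1R3C was -1.07, -0.30 and -0.81 at D85, -1.20, 1.63 and -1.28 at D105, and -3.32, -3.46 and -3.16 at D135. The D135 libraries lay below all others, and D105 library 2 was the single one with more PPP1R3A than PPP1R3C. The difference among ages gave an exact permutation p of 0.0357, which was 0.0714 after adjustment over the 4 relations. The adjusted exact permutation p was 0.00952 without D105 library 2. The PPP1R3C share of the summed FPKM of the PPP1R3 loci was 37.0% to 50.3% at D85, 14.5% to 62.8% at D105 and 83.8% to 87.7% at D135.

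Among the other phosphatase genes, PPP1R3B, the targeting subunit best known from liver, averaged 5.79 ± 2.05 FPKM at D135, against 1.03 ± 0.261 FPKM at D105 and 1.40 ± 0.401 FPKM at D85 (SD, n = 3 each). It rose against both earlier ages (log2 changes 1.71 and 1.47, limma adjusted p = 0.00189 and 0.00168), and by 1.60 against D105 without D105 library 2 (adjusted p = 0.00652). PPP1R1A, which encodes phosphatase inhibitor 1, averaged 22.2 ± 4.04 FPKM at D135, against 5.87 ± 0.190 FPKM at D85, and rose (1.74, adjusted p = 0.000156). EPM2A, the glycogen phosphatase laforin, averaged 5.87 ± 1.11 FPKM at D135, against 1.93 ± 0.259 FPKM at D85, and rose (1.22, adjusted p = 0.000514). PPP1CB, a catalytic subunit of the phosphatase, averaged 13.4 ± 1.08 FPKM at D135 and 14.6 ± 0.629 FPKM at D85 and did not pass (-0.11, adjusted p = 0.327). Its direction turned under median-of-ratios scaling, where it was called higher (0.29, adjusted p = 0.0358).

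On the synthesis side, the level of UGP2 was lowest at D135, whereas GYS1 and GBE1 passed no test under the main scaling. UGP2, the pyrophosphorylase that makes UDP-glucose, had 45.5, 52.7 and 57.8 FPKM at D85, 51.5, 41.3 and 42.1 FPKM at D105, and 26.3, 37.1 and 28.7 FPKM at D135. Each D135 library lay below each earlier one, and D105 overlapped D85. Means were 52.0 ± 6.20 FPKM at D85, 45.0 ± 5.72 FPKM at D105 and 30.7 ± 5.65 FPKM at D135 (SD, n = 3 each). UGP2 fell by 0.75 ± 0.16 on the log2 scale at D135 against D85 (limma adjusted p = 0.00607) and by 0.54 ± 0.16 against D105 (adjusted p = 0.0274). Relative to the median of all loci these changes were -0.40 and -0.21. Under median-of-ratios scaling neither passed (-0.33, adjusted p = 0.203, and -0.15, adjusted p = 0.615). The D135 against D105 call was also lost under quantile normalization (adjusted p = 0.119) and with totals taken without the top 50 loci (adjusted p = 0.0735). It was lost too with the replicate number as a block. Leaving out D105 library 1 (adjusted p = 0.0837), D135 library 1 (0.0802) or D135 library 3 (0.0760) also lost this call.

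GYS1, the muscle glycogen synthase, had 12.6, 13.4 and 12.2 FPKM at D85, 15.9, 13.3 and 13.5 FPKM at D105, and 13.3, 14.3 and 12.9 FPKM at D135. The 3 ages overlapped. The log2 difference of D135 against D85 was 0.08 with a 95% interval of -0.14 to 0.29 (limma adjusted p = 0.544), and against D105 it was -0.07 with an interval of -0.29 to 0.15 (adjusted p = 0.576). Under median-of-ratios scaling the difference of D135 against D85 was 0.48 (adjusted p = 0.00857).

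GBE1, the branching enzyme, had 3.90, 4.28 and 3.52 FPKM at D85, 4.87, 5.15 and 4.38 FPKM at D105, and 4.88, 4.58 and 4.27 FPKM at D135. D105 lay just above D85 without overlap, and D135 overlapped both. The log2 difference was 0.24 for D105 against D85 (limma adjusted p = 0.380) and 0.19 for D135 against D85 (95% interval -0.04 to 0.42, adjusted p = 0.158), the second being 0.54 under median-of-ratios scaling (adjusted p = 0.00353). The log2 ratio of GBE1 to GYS1 averaged -1.49 ± 0.0522 at D85, -1.39 ± 0.160 at D105 and -1.38 ± 0.0882 at D135 (SD, n = 3 each), with an exact permutation p of 0.432 among ages, also after adjustment.

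The balance of GYS1 to PYGM within libraries differed among the ages. The log2 ratio was -2.77, -3.01 and -2.84 at D85, -3.26, -2.93 and -3.75 at D105, and -4.32, -4.49 and -4.57 at D135. All D135 libraries lay below all others, and D105 overlapped D85. The exact permutation p among ages was 0.00714, which was 0.0286 after adjustment over the 4 relations. Leaving out D135 library 3 raised the adjusted exact permutation p to 0.0714. Pairs of ages with 3 libraries each cannot give a p below 0.1 in this test.

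Glycogenin, the primer of the particle, has a widely expressed gene, GYG1, and a second gene, GYG2, best known from human liver. GYG1 had 14.3, 9.08 and 15.8 FPKM in the D135 libraries, against 7.07, 3.76 and 6.73 FPKM in the D85 libraries, and rose (log2 change 1.04, limma adjusted p = 0.0369). GYG2 had 2.32, 3.37 and 1.14 FPKM in the D135 libraries, against 11.7, 14.2 and 10.6 FPKM in the D85 libraries, and fell by 2.06 on the log2 scale (adjusted p = 0.00273). The ratio of GYG1 to GYG2 was below 1 in every D85 library (0.264 to 0.633) and above 1 in every D135 library (2.70 to 13.9). At D105 it was 0.409 and 0.302 in libraries 1 and 3 and 1.92 in library 2. The GYG1 call at D135 against D85 was lost without D85 library 2 (adjusted p = 0.114), D85 library 3 (0.0546), D135 library 1 (0.0944) or D135 library 3 (0.107).

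PGM1, which interconverts glucose 1-phosphate and glucose 6-phosphate, averaged 78.0 ± 21.9 FPKM at D135 and 44.3 ± 5.76 FPKM at D85 (SD, n = 3 each) and rose (log2 change 0.77, limma adjusted p = 0.0363), a call lost without D85 library 1 (adjusted p = 0.0859), D85 library 2 (0.102), D135 library 2 (0.112) or D135 library 3 (0.0853). PGM2L1, which makes glucose 1,6-bisphosphate, averaged 5.80 ± 0.600 FPKM at D135 and 2.18 ± 0.274 FPKM at D85 and rose (1.09, adjusted p = 0.000282).

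Every member called between a pair of ages was called in a comparison with D135. At D105 against D85, 0 of the 9 loci passed limma's test, 3 had an unadjusted p under 0.05, and 1 had non-overlapping libraries; the corresponding shares of all tested loci were 0.199% called and 18.4% not overlapping. At D135 against D105, 3 members rose (PYGM, PPP1R3C and the PHKG1 locus) and 1 fell (UGP2), where 4.47% of all tested loci were called higher, 35.0% lower and 39.5% in either direction. Libraries did not overlap for 5 of the 9 members, against 54.1% of all loci, a share that does not set the members apart. The median log2 difference of the members was 0.18, beside -0.33 over all loci. Without D105 library 2, the log2 changes at D135 against D105 were 0.84 for PYGM (limma adjusted p = 0.00968), 0.44 for the PHKG1 locus (0.0407), 0.43 for PPP1R3A (0.168) and -0.60 for UGP2 (0.0407), with the same calls. At D105 against D85 without it, PYGM differed by 0.82 (adjusted p = 0.154), PPP1R3A by 0.48 (0.491) and GBE1 by 0.20 (0.573). In that comparison 0 members were called, where 21 of 12909 tested loci were.

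At D135 against D85, 4 members rose (the same 3 and PPP1R3A) and 1 fell (UGP2), where 6.90% of all loci were called higher, 39.7% lower and 46.6% in either direction. Libraries did not overlap for 6 of 9 members, against 58.2% of all loci. The median of the members was 0.33, beside -0.35 over all loci. This comparison shares its D135 libraries with the one against D105. Without D105 library 2, 4 members were called at D135 against D105, where 4319 of 12909 tested loci were. At D135 against D85 that fit called 5 members, where 6141 of 12909 loci were called. Under median-of-ratios scaling, 7 members rose and 0 fell at D135 against D85 (PYGL, GYS1 and GBE1 joined, and UGP2 was not called), while 1809 of all loci were called higher and 1835 lower, compared with 903 and 5194 under the main scaling. At D135 against D105 under that scaling, 4 members rose and 0 fell, while 1197 of all loci were called higher and 1047 lower, compared with 585 and 4579.

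Over the 3 ages together, 5 of 9 members passed limma's F test (PYGM, PPP1R3A, PPP1R3C, the PHKG1 locus and UGP2), where 43.2% of all loci did. Under median-of-ratios scaling 6 passed: GYS1 (adjusted p = 0.0223) and GBE1 (0.0102) were called and UGP2 was not (0.382). The share of 43.2% holds for the main scaling, and that of all loci under median-of-ratios scaling is not given here. The contrast of D105 with the average of the youngest and oldest ages asks whether the change up to D105 differs from the change after it. It takes no account of the unequal lengths of these intervals. This contrast called 0 members, 1 with an unadjusted p under 0.05, where 0.352% of all loci were called. That 1 was PPP1R3C, named after its value was seen, with a difference of -1.63 (adjusted p = 0.139), which was -0.76 without D105 library 2 (adjusted p = 0.129).

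**Figure D3:**
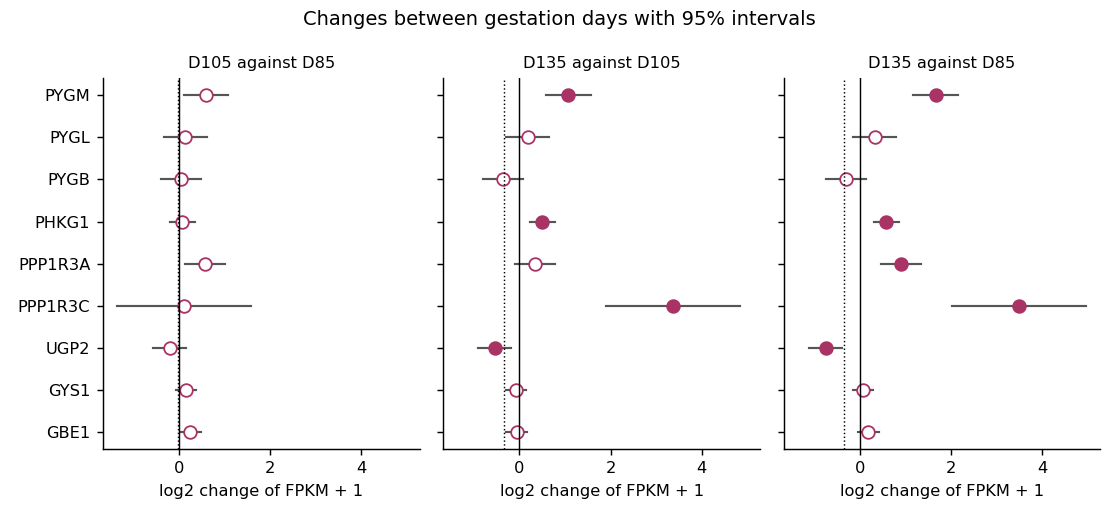
Log2 change of each of the 9 loci on the log2(FPKM + 1) scale for D105 against D85, D135 against D105 and D135 against D85, with 95% intervals from limma; filled points passed the test and the dotted line marks the median of all tested loci. Intervals for D105 against D85 are widest for PPP1R3C (-1.35 to 1.59), and the same locus has the largest changes at D135 (3.37 and 3.49).

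The order of the levels changed between the ages. At D135 it ran PYGM, PPP1R3C, UGP2, PHKG1 locus, GYS1, PPP1R3A, PYGL, GBE1 and PYGB, and PPP1R3A and PYGL were the single pair of neighbours whose libraries overlapped. At D85, UGP2 was second to PYGM (52.0 and 100.2 FPKM), and PPP1R3C, at a mean of 8.40 FPKM, stood below GYS1 and overlapped PYGL. At D85 the libraries of neighbours overlapped from PPP1R3C down to PYGB, as did those of the PHKG1 locus and GYS1. At D105 they overlapped from GYS1 down to PPP1R3A.

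Set against the summed muscle markers of the same library, the members separated differently. PYGM had 13.0, 14.4 and 9.95 FPKM per 1000 FPKM of muscle markers at D85, 13.8, 12.6 and 21.5 at D105, and 17.2, 17.3 and 16.4 at D135. On that scale D135 still lay above D85, but D105 overlapped both. PPP1R3C had 1.18, 0.934 and 1.0 at D85, 1.21, 0.238 and 2.39 at D105, and 6.15, 6.16 and 4.57 at D135, so its D135 libraries lay above all others here too. The PHKG1 locus ran the other way, at 1.95, 1.77 and 1.33 at D85 and 1.27, 1.19 and 0.876 at D135, and PPP1R3A overlapped between these ages (0.488 to 0.736 at D85 and 0.465 to 0.563 at D135). UGP2 had 6.13 to 6.61 at D85, 4.41 to 4.80 at D105 and 1.43 to 1.87 at D135, with no overlap of the ages. GYS1 averaged 0.722 ± 0.0798 at D135 and 1.59 ± 0.259 at D85 (SD, n = 3 each). PYGL averaged 0.491 at D135 and 0.919 at D85, PYGB 0.123 at D135 and 0.389 at D85, and GBE1 0.247 at D135 and 0.488 at D85. On this scale every member but PYGM and PPP1R3C thus had a lower mean at D135 than at D85. The scale depends on the markers summed, which did not rise alike. ACTA1 averaged 1103 FPKM at D85 and 5292 FPKM at D135, and CKM 633 and 3501 FPKM. The other markers rose less, such as TTN (812 and 1414 FPKM) and DES (482 and 690 FPKM). Scaling to single markers was not tested.

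**Figure D4:**
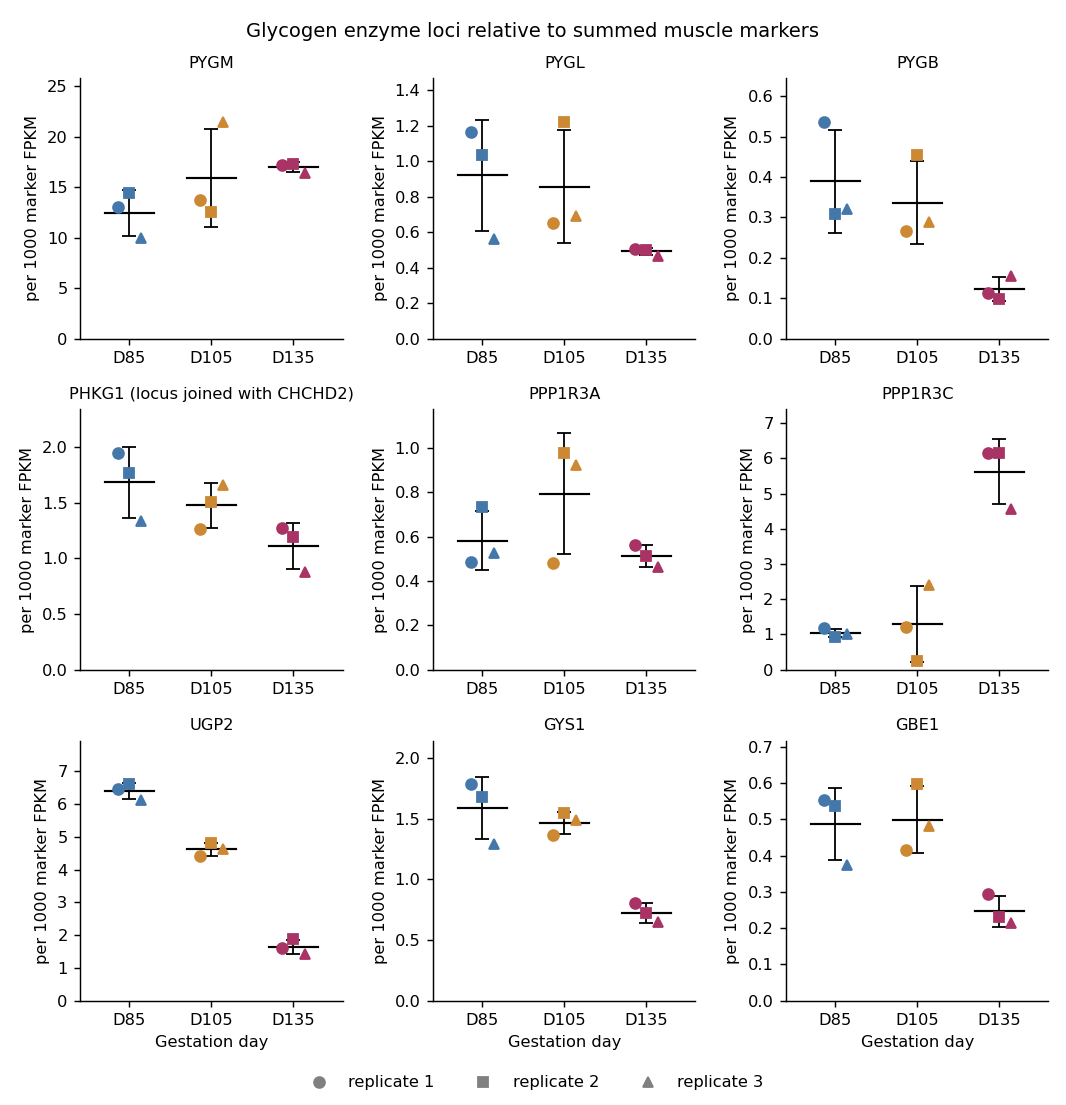
FPKM of each locus per 1000 FPKM of 7 summed skeletal muscle markers in the same library, by gestation day, with the mean and SD of 3 libraries. PPP1R3C stood highest at D135 (mean 5.62) and PYGM at D135 (16.9) lay above D85 (12.5), whereas the means of the other 7 loci were lower at D135 than at D85.

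Beyond the 9 members, 48 further genes of glycogen metabolism and its control were listed; 47 were matched to a locus and 40 passed the filter. At D105 against D85, 0 of the 40 passed limma's test, and 6 had an unadjusted p under 0.05, where 0.199% of all loci were called. At D135 against D105, 7 rose and 9 fell, 16 of 40, where 39.5% of all loci were called, with a median log2 difference of -0.12, beside -0.33 over all loci. At D135 against D85, 8 rose and 12 fell, 20 of 40, where 46.6% of all loci were called, with a median of -0.20, beside -0.35 over all loci. Under the main scaling, the shares called in either direction lay near those of all loci, but the split by direction differed. Of all loci, 4.47% were called higher and 35.0% lower at D135 against D105. The corresponding shares were 6.90% and 39.7% at D135 against D85. In both comparisons under this scaling, the 40 genes were called higher more often, and lower less often, than all loci. Under median-of-ratios scaling the split at D135 against D85 was 11 higher and 5 lower, and against D105 it was 10 higher and 3 lower. Set against the counts of all loci under that scaling given above, the 40 genes were called higher more often and lower about as often. The F test called 19 of the 40 under the main scaling, where 43.2% of all loci were called. It called 16 under median-of-ratios scaling, for which the share of all loci is not given here. The contrast of D105 with the average of the others called 0, with 9 at an unadjusted p under 0.05.

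Of the genes in that list not yet described, G6PC3, the widely expressed glucose 6-phosphatase, averaged 2.09 ± 0.0451 FPKM at D135 and 6.66 ± 1.09 FPKM at D85 and fell by 1.30 on the log2 scale (limma adjusted p = 0.000607). PRKACA, a catalytic subunit of the cyclic AMP-dependent kinase that acts on phosphorylase kinase, averaged 11.9 ± 1.63 FPKM at D135 and 23.9 ± 4.61 FPKM at D85 and fell by 0.94 (adjusted p = 0.00167). PRKAG3, the AMP-activated kinase subunit whose variants alter muscle glycogen in pigs, averaged 3.20 ± 0.331 FPKM at D135 and 7.43 ± 2.22 FPKM at D105 and fell by 0.97 (adjusted p = 0.0137); the change was -1.20 without D105 library 2 (adjusted p = 0.00649), and the call was lost under median-of-ratios scaling (-0.64, adjusted p = 0.0932). The liver genes GYS2 and G6PC1 did not pass the filter and had at most 0.0568 and 0.0156 FPKM in any library.

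**Figure D5:**
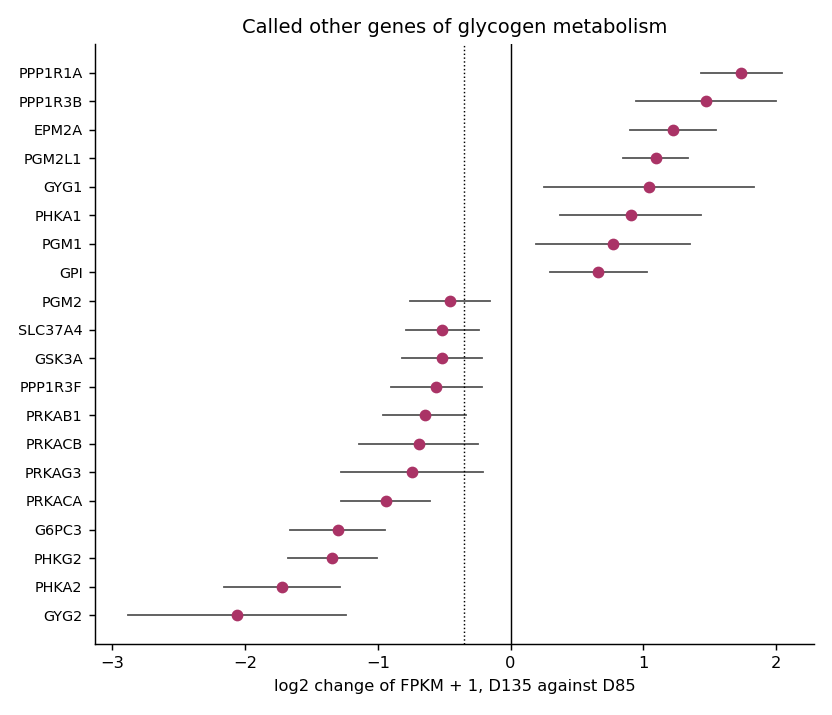
Log2 change at D135 against D85 of the 20 called among the 40 other genes tested, with 95% intervals from limma; the dotted line marks the median of all loci. PPP1R1A (1.74), PPP1R3B (1.47) and EPM2A (1.22) lie at the upper end, and GYG2 (-2.06), PHKA2 (-1.72) and PHKG2 (-1.34) at the lower end.

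Across the 9 libraries, PYGM, PPP1R3C and the PHKG1 locus varied most closely together, and PPP1R3A less so. As a description over libraries that share their ages, with no test, Pearson's r of log2(FPKM + 1) was 0.930 for PYGM and PPP1R3C, 0.913 for PPP1R3C and the PHKG1 locus, 0.904 for PYGM and the PHKG1 locus, and -0.791 for PYGM and UGP2. For PPP1R3A it was 0.809 with PYGM, 0.681 with the PHKG1 locus and 0.597 with PPP1R3C. Among 10897 other tested loci with a single gene symbol, those with r above 0.9 numbered 133 for PYGM and 61 for PPP1R3C. They numbered 109 for the PHKG1 locus, 257 for UGP2, 27 for PPP1R3A, 23 for PYGB and 5 for GBE1. For PYGL and GYS1 there was 1 each. The loci named next are the highest of all these candidates, with no test. The closest to PYGM were DTNA (r = 0.992), ARL11 (0.979) and DHRS7C (0.978). The closest to PPP1R3C were VDAC2 (0.983), VDAC3 (0.957) and HIPK3 (0.953). The closest to the PHKG1 locus were SDHA (0.983), NDUFS8 (0.981) and ATP5B (0.976), and the closest to UGP2 was KCNE5 (0.982). For members that passed no limma test under the main scaling, the closest were HIGD2A for PYGL (0.938), LOXL1 for PYGB (0.952), ADRA1D for GYS1 (0.929) and LAMB2 for GBE1 (0.924). For PPP1R3A it was FLT1 (0.965).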

How the data were processed

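Total RNA of 9 longissimus dorsi libraries was sequenced, per the labels. Values are FPKM per locus, deposited by the authors, per the file headers; cutadapt, Bowtie2 and TopHat2 are named in the submitters' processing notes, with versions, genome build and quantifying program not given in the sources used here. The table holds no read counts, so the depth in reads is unknown. A locus can join neighbouring genes (211 loci did), and reads of joined genes cannot be separated. Members and gene lists were chosen with earlier results of these data known. Loci that reached 1 FPKM in 3 or more libraries entered the tests, made with limma 3.58.1 (R 4.3.3) on log2(FPKM + 1), all libraries in 1 fit with a trended prior, two-sided, with p-values adjusted by Benjamini-Hochberg over 13086 loci and a threshold of 0.05. Relations within libraries were tested among the ages by exact permutation of the between-age sum of squares, over every assignment of libraries to ages. Pairs of ages were compared by exact two-sided permutation of the difference of means (scipy 1.17.1). The named genes were all members, the 12 listed pathway genes with the largest called change, a few set names, and for each member the 3 closest loci by correlation. No sign of pairing by replicate number was seen: 0 of 9 same-numbered pairs of deviations correlated above 0.1 (r between -0.07 and 0.06). With 3 libraries at each age, these values cannot exclude a shared batch. No 2 libraries were identical. RefSeq gene names matched 1 older symbol. The fits were tested on simulated data. Some genes of the pathway list are not reported here.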

Additional observations from a re-analysis of the deposited data

How the results depend on the processing

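Of 703 recomputed log2 changes of members, 687 kept their direction and side of the threshold, or stayed uncalled, 8 lost their call, 8 gained one and 0 called values turned. PYGM, PPP1R3C and the PHKG1 locus kept their calls at D135 against both earlier ages, and PPP1R3A against D85, in each of the 20 alternatives run. The number of members called at D135 against D85 was 8 under quantile normalization (7 higher, 1 lower) and 5 in the fit reported; the cause was not tested. Across the fits without 1 library, the adjusted exact permutation p ranged between 0.00714 and 0.214 for the PYGM share, between 0.00714 and 0.0714 for GYS1 to PYGM and between 0.00952 and 0.0929 for PPP1R3A to PPP1R3C. PPP1CB, a gene whose recomputation was not planned, turned to 0.29 at D135 against D85 under median-of-ratios scaling (limma adjusted p = 0.0358). The cause was not tested. With the replicate number as a block, members called at D135 against D105 numbered 3, since UGP2 was lost (-0.54, limma adjusted p = 0.0580), and all loci called at D105 against D85 numbered 8. Over all loci, the alternatives called 8 to 51 for D105 against D85, 2058 at the fewest for D135 against D105 and 3542 at the fewest for D135 against D85 (both under quantile normalization), and 3 to 164 for D105 set against the other ages averaged. PYGB and GBE1 left the test at a minimum of 5 FPKM. Summing several loci of a member had no effect to test, since each has 1, and a fit on the libraries of the compared ages alone does not exist for tests that use all 3 ages. FPKM without read counts gives no counting error, which limits most the loci near 1 FPKM.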
